A study of Mus musculus with 6 samples.

Results

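The 345 genes described here lie within 10 Mb of Prmt9 on mouse chromosome 8 (GRCm38), 191 on the side of lower coordinates and 154 on the side of higher coordinates. They are all genes, other than Prmt9 itself, whose GENCODE M21 position overlaps chr8:67549397-87581338 and that have a row in the deposited table of gene expression, which holds 36008 genes. The rest of chromosome 8 holds 1128 further genes of that table. The choice used position alone and no expression value. Of the 345 genes, 254 are protein-coding and 91 belong to other classes, mostly processed pseudogenes. A mean of at least 1 TPM, the abundance of transcripts scaled to their length and to the library, was reached by 225 genes, 101 had a mean above 0 and below 1 TPM, and 19 were listed at 0 in every mouse. The annotation places 160 other genes in the window that have no row in the table and were not analysed here.

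RNA had been taken from the hippocampus of 3 WT and 3 Prmt9 KO mice, all female, 2 weeks old and of the strain labelled B6J. The KO mice carried a whole-body deletion of exon 5 of Prmt9, made from a floxed allele that CRISPR/Cas9 had introduced in C57BL/6 zygotes and that CMV-Cre mice on C57BL/6J had recombined, and the WT mice were littermates. Each library was 1 mouse of its own. The comparison asked whether genes near the edited locus differ between the genotypes in their level or in the use of their transcripts, and whether they do so more than the rest of the chromosome.

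A deletion can alter its neighbours on the same chromosome, for instance when it removes or uncovers a regulatory element or when transcription reads on into the next gene. A knockout chromosome can also carry alleles that came with it from the founder animal, and close linkage keeps such alleles together with the deletion over generations. Genes around an edited locus are therefore examined as a check on any knockout. PRMT9 is an arginine methyltransferase whose best known substrate is the splicing factor SF3B2, and the use of transcripts is therefore given beside the level of each gene.

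The targeted gene was checked first. Prmt9 (ENSMUSG00000037134, chr8:77549397-77581338) was at 11.8, 15.2 and 15.0 TPM in WT mice 1, 2 and 3 and at 3.93, 4.61 and 4.67 TPM in KO mice 1, 2 and 3. Every KO mouse was below every WT mouse, with a log2 fold change of −1.71 ± 0.10 (SE; edgeR quasi-likelihood test, Benjamini-Hochberg adjusted p = 0.0327), the smallest p of all genes tested. All distances are counted from the nearer end of the Prmt9 gene, not from the deleted exon. That exon, which transcript-level values do not resolve, is shown because it is the edit itself. It holds 103 coding bases at chr8:77562414-77562516 on the forward strand (GENCODE M21 transcript sequence, GRCm38, 5′ to 3′).
Prmt9 exon 5: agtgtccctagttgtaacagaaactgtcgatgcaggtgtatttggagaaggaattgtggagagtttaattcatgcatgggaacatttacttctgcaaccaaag

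The libraries held 194098391 to 286771677 estimated counts. Both mice numbered 1 stood apart from the other 4 on the first principal component, which took 67.4% of the variance (WT mouse 1 at −110, KO mouse 1 at −30.6, the others between 31.5 and 37.8). The hippocampal markers Slc17a7, Neurod6, Prox1 and Camk2a were present in every mouse. Their levels summed to 1659 and 1742 TPM in WT mouse 1 and KO mouse 1 and to 2665 to 2834 TPM in the others. Slc17a7, Prox1 and Camk2a were each lower in both mice numbered 1 than in the others. Neurod6 was not, at 123 and 148 TPM in WT mouse 1 and KO mouse 1 against 114 to 132 TPM in the others. The oligodendrocyte marker Mbp was at 1431 and 698 TPM in WT mouse 1 and KO mouse 1 against 4764 to 6772 TPM in the others, and Mog at 28.3 and 13.3 TPM against 107 to 178 TPM. The choroid plexus markers Ttr, Folr1 and Clic6 summed to 7242 TPM in WT mouse 1 and to 600 to 3311 TPM elsewhere. The genes around Prmt9 together took 1.48% and 1.43% of all TPM in WT mouse 1 and KO mouse 1 and 1.32% to 1.35% in the other 4 mice. In bulk tissue, fewer cells of a type and less RNA per cell cannot be told apart. The part of these differences in the results below was not tested, and values without WT mouse 1 or without both mice numbered 1 stand beside many of the results.

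No gene within 10 Mb of Prmt9 met the limits for differential expression. With edgeR, 275 of the 345 genes passed the filter on low counts and 70 did not. Of the 275, 0 reached an adjusted p below 0.01 with a fold change above 1.5, where the share over all 20335 genes tested was 0%. Prmt9 itself, at an edgeR adjusted p of 0.0327, also missed these limits in this fit, so a count of 0 there says little about its neighbours. At an adjusted p below 0.05 the count was also 0 of 275, against 0.00492% of all genes, which is Prmt9 alone. At an unadjusted p below 0.05 it was 4 of 275 (1.45%), against 1.23% of all genes and 1.09% of the rest of chromosome 8. Of the 4, 1 was higher in KO (Frem3), where all genes gave 0.787%, and 3 were lower (Rps13-ps1, Insl3 and Junb), where all genes gave 0.448%. DESeq2 gave 0 genes of the window at the stricter limits, where it called 2 of all 28279 genes. At an adjusted p below 0.05 it gave 1 gene of the window, Rps13-ps1, against 0.0177% of all genes with an adjusted p. The 95% confidence interval of the fold change lay wholly within 1.5-fold in either direction for 119 genes, and its median half-width was 0.54 on the log2 scale, a 1.45-fold difference.

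By distance from Prmt9, the 10 genes tested within 1 Mb had a median log2 fold change of −0.02, the 9 genes at 1 to 2 Mb −0.06, the 30 genes at 2 to 5 Mb −0.12 and the 226 genes at 5 to 10 Mb −0.06, beside −0.01 for the rest of chromosome 8 and −0.01 for all genes. Among genes with a mean of at least 1 TPM, the values of the 3 KO mice lay wholly above or below those of the 3 WT mice in 0 of 9 genes within 1 Mb and 0 of 5 at 1 to 2 Mb. They did so in 1 of 21 genes at 2 to 5 Mb, Hmgxb4, and in 13 of 190 at 5 to 10 Mb, where all genes gave 5.97% and the rest of chromosome 8 gave 6.41%. The bins next to Prmt9 hold too few genes to be read against these shares. The count was 8 of 127 genes on the side of lower coordinates and 6 of 98 on the other side.

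**Figure D1:**
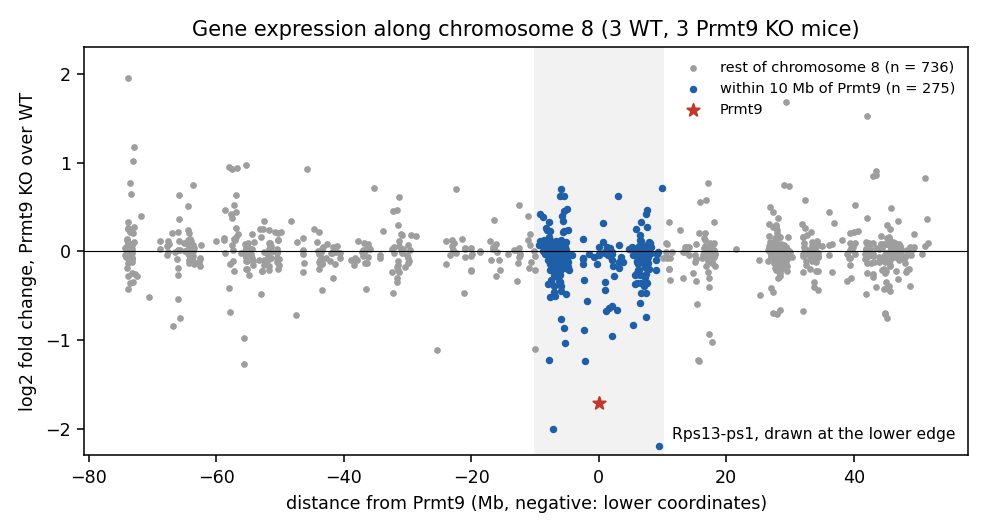
Log2 fold change of Prmt9 KO over WT (y axis, edgeR) against the distance from Prmt9 in Mb (x axis, negative for lower coordinates), 1 point per tested gene of chromosome 8, with genes within 10 Mb in blue, the rest of the chromosome in grey and Prmt9 as a star. The points spread around 0 on both sides of Prmt9 at all distances, and Rps13-ps1, at −5.48 and 9.47 Mb away, is drawn at the lower edge of the plot.

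Tmem184c, a transmembrane protein gene that lies 14.6 kb from Prmt9 on the side of higher coordinates, is its closest tested neighbour (ENSMUSG00000031617, chr8:77595982-77610698). It was at 40.0, 52.6 and 51.0 TPM in WT mice 1, 2 and 3 and at 46.9, 49.3 and 47.4 TPM in KO mice 1, 2 and 3. The KO values lay within the WT range, and the log2 fold change was −0.03 (95% CI −0.26 to 0.21). Arhgap10, which encodes a GTPase-activating protein, lies 31.4 kb from Prmt9 on the side of lower coordinates (chr8:77250366-77517953). Its TPM was 4.06, 4.87 and 5.32 in WT and 5.10, 5.26 and 4.99 in KO, again within the WT range, with a log2 fold change of 0.05 (95% CI −0.24 to 0.34). Ednra, the endothelin receptor type A of vascular smooth muscle, lies 81.7 kb beyond Prmt9. It was at 3.1, 3.68 and 4.24 TPM in WT and at 3.87, 3.51 and 3.79 TPM in KO, with a log2 fold change of −0.05 (95% CI −0.37 to 0.27).

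Nr3c2 encodes the mineralocorticoid receptor, a steroid receptor abundant in the hippocampus, and lies 304 kb from Prmt9 on the side of lower coordinates. Its TPM was 38.3, 60.1 and 57.9 in WT and 38.0, 55.6 and 50.9 in KO, and the log2 fold change was −0.14 (95% CI −0.42 to 0.14). Both mice numbered 1 were the low ones, and in each group the other 2 mice were close together. Slc10a7, a solute carrier family member 928 kb away, was at 2.81, 4.75 and 3.92 TPM in WT and 4.51, 3.72 and 4.15 TPM in KO, overlapping throughout. Lsm6, a subunit of the ring that binds U6 snRNA, was at 52.4, 39.5 and 36.8 TPM in WT and 49.8, 37.4 and 38.3 TPM in KO, so that mouse number and not genotype ordered its values. The zinc finger gene Zfp827 (log2 fold change −0.05), Mmaa of cobalamin metabolism (0.04) and Smad1, a mediator of BMP signalling (−0.06), overlapped between the genotypes as well.

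Ttc29, Gm45574, Gm2225, Gm5353, Gm7901 and Iqcm, also within 2 Mb, were at low levels. Gm45574, a processed pseudogene 616 kb away, was at 1.02 to 1.28 TPM in WT and 1.19 to 1.88 TPM in KO. Gm2225, a processed pseudogene with 85.9% of its 31-base stretches also found in other genes, was at 1.45 to 3.25 TPM in WT and 1.54 to 1.84 TPM in KO. Gm5353 ranged from 0.369 to 1.98 TPM in WT and from 0.832 to 1.77 TPM in KO. Ttc29 was at 0.388 to 1.28 TPM in WT and 0.446 to 0.696 TPM in KO, Iqcm at 0.133 to 0.266 and 0.149 to 0.337 TPM, and Gm7901 at 0.165 TPM or less in every mouse. All 6 genes overlapped between the genotypes. A list of 15 named neighbours, written with the positions and earlier results known, held 14 tested genes with a median log2 fold change of −0.03. The lowest value was that of Hhip, the Hedgehog-interacting protein (−0.27, 0.633 and 0.712 TPM in the mice numbered 1 against 2.92 to 3.57 TPM in the other 4), and the highest that of Ttc29 (0.10). These were −0.29 and 0.64 without both mice numbered 1. Otud4 (−0.03), the ribosome recycling factor gene Abce1 (−0.00) and Anapc10 of the anaphase-promoting complex (−0.10) were in between. Pou4f2, a transcription factor of sensory neurons, was at most 0.0381 TPM in every mouse and was not tested. None of the 13 listed neighbours with a mean of at least 1 TPM had separate groups.

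**Figure D2:**
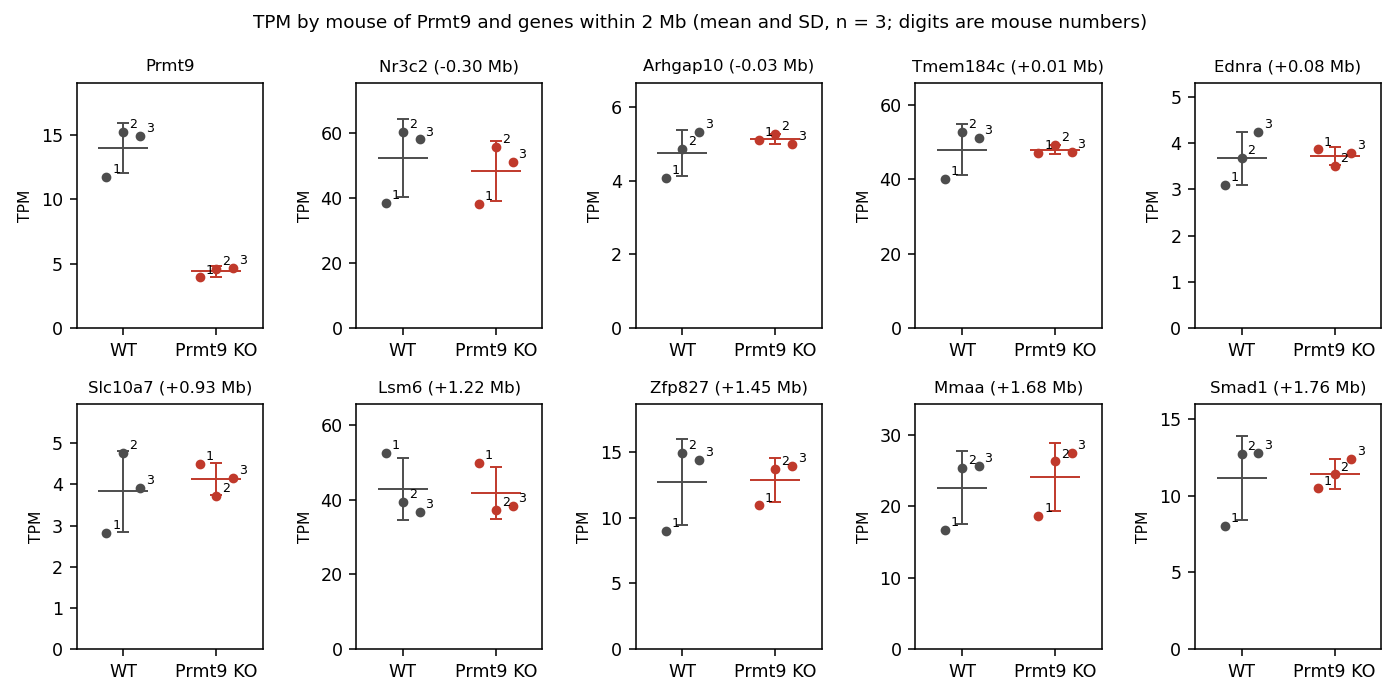
TPM of Prmt9 and of genes within 2 Mb of it (y axes) in each WT and Prmt9 KO mouse, with points numbered by mouse and bars for the mean and SD (n = 3). Prmt9 is the only gene drawn whose 3 KO values all lie below the WT values.

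As a group the genes around Prmt9 sat slightly below the rest. The median log2 fold change over the 275 tested genes was −0.06, and 67.6% of them were below 0, against 55.0% in the rest of chromosome 8 and 53.1% of all genes. The fold change passed 1.5 in either direction in 21 of the 275 (7.64%), against 6.62% of all genes. The median deviation of the genes from their own mean over the mice was, on the log2 scale, 0.05 in WT mouse 1, −0.02 and −0.02 in WT mice 2 and 3, 0.00 in KO mouse 1, and −0.04 and −0.03 in KO mice 2 and 3. WT mouse 1 was the high one, and without it the median was 0.01, beside 0.02 for all genes. Without both mice numbered 1 it was −0.02, beside −0.00 for all genes. The window is also rich in GC, with a median transcript GC content of 54.3% against 51.6% in the rest of chromosome 8 and 49.9% in all genes. In the GC-richest of 3 equal classes of all genes, which held 155 of the 275 genes, the median was −0.09 against −0.06 for all genes of the class. In the middle class it was −0.05 (64 genes) against 0.00, and in the GC-poorest class −0.00 (56 genes) against 0.03. The part of GC content and of WT mouse 1 in the group's median was not tested beyond these values.

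Rps13-ps1 had the smallest p within 10 Mb. It is a processed pseudogene, an intronless copy of the mRNA of the ribosomal protein gene Rps13, 9.47 Mb from Prmt9 (ENSMUSG00000066362, chr8:87047689-87048226). Its level was 4.01, 1.12 and 1.69 TPM in WT mice 1, 2 and 3, 0.166 TPM in KO mouse 1, and at or near 0 in KO mice 2 and 3. In estimated counts these were 182, 55.0 and 77.1 in WT against 7.97, 0.000193 and 0 in KO, so the groups were separate. The fitted log2 fold change was −5.48 (95% CI −8.64 to −2.31), a value that depends on the prior count because 2 KO libraries hold no count. Its unadjusted p was 0.00526 and its adjusted p 1 with edgeR's quasi-likelihood test, and DESeq2 gave an adjusted p of 0.0383. Without both mice numbered 1, edgeR's unadjusted p was 0.000102.

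The pseudogene is nearly identical to its parent, and 92.3% of its 31-base stretches also occur in transcripts of other genes. kallisto divides reads that fit several transcripts between them by its model, so the counts rest on few distinguishing bases. A stretch of Rps13 (chr7:116331550-116332402, reverse strand, across an intron) and the matching stretch of Rps13-ps1 (chr8:87048118-87048175, forward strand) are shown because they hold such bases. Both are 58 bases from the GENCODE M21 transcripts (GRCm38), printed 5′ to 3′ with the differing bases in capitals. The differences are T13C and A31G, counted from 1 at the 5′ end of the printed stretch, with the base of Rps13 first.
Rps13: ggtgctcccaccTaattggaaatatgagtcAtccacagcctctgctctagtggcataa
Rps13-ps1: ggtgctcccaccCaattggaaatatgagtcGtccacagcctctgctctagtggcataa

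Rps13 itself was at 604, 330 and 316 TPM in WT and 512, 336 and 342 TPM in KO, and its groups overlapped (log2 fold change −0.16). Rps13-ps2 on chromosome 7 was at 235, 55.6 and 71.1 TPM in WT and 118, 60.2 and 62.5 TPM in KO, also overlapping. Rps13-ps4, a copy in the rest of chromosome 8, ranged from 3.39 to 4.51 TPM in WT and from 3.68 to 5.53 TPM in KO. No other copy with a row in the table had separate groups. The KO signal of Rps13-ps1 was thus low while its parent and the other expressed copies overlapped between genotypes, and its own level was below 5 TPM in every mouse.

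Frem3, an extracellular matrix protein gene 3.03 Mb from Prmt9, was at 0.334, 0.365 and 0.267 TPM in WT and 0.503, 0.615 and 0.472 TPM in KO. Every KO mouse was higher, at a level below 1 TPM throughout, with a log2 fold change of 0.63 ± 0.24 (SE; edgeR unadjusted p = 0.0394, adjusted p = 1). Insl3, a relaxin family peptide hormone best known from the gonads, was at 1.14, 0.941 and 1.11 TPM in WT and 0.50, 0.711 and 0.773 TPM in KO. Its groups were also separate (log2 fold change −0.76 ± 0.30, SE; edgeR unadjusted p = 0.0420, adjusted p = 1), with −0.47 without both mice numbered 1, and 63.1% of its 31-base stretches are shared with other genes. Junb, an activity-induced subunit of the AP-1 transcription factor, was at 34.0, 62.3 and 55.5 TPM in WT and 27.8, 41.1 and 44.9 TPM in KO. WT mouse 1 lay within the KO range, so the groups overlapped, and the log2 fold change was −0.47 ± 0.19 (SE; edgeR unadjusted p = 0.0489, adjusted p = 1). The sample titles number the mice but state no pairs, and mice 2 and 3 correlated about as well across numbers as by number. Between mice of the same number Junb was lower in KO in 3 of 3 cases. Blocking on the replicate number gave Junb an unadjusted edgeR p of 0.00101, with no gene of the window at an adjusted p below 0.05.

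The genes that followed by p had no unadjusted p below 0.05. Gm5373, a transcribed pseudogene, was at 9.04, 14.8 and 14.5 TPM in WT and 13.5, 17.5 and 19.1 TPM in KO (log2 fold change 0.34), overlapping through KO mouse 1. Rtbdn, a riboflavin-binding protein gene (0.42, and 0.09 without both mice numbered 1), and Tmem59l, a neuronal membrane protein gene at 302 to 375 TPM (−0.19), overlapped as well. Cbln1 encodes cerebellin 1, a secreted organiser of synapses, and lies 9.89 Mb from Prmt9 (chr8:87468405-87472609). It was at 8.54, 8.76 and 9.42 TPM in WT and 22.3, 13.2 and 10.3 TPM in KO, so that all KO mice were higher but KO mouse 1 lay far above the other 2. Its log2 fold change was 0.72 (95% CI −0.07 to 1.51) over all mice and 0.34 without both mice numbered 1. Clgn, the chaperone calmegin, was at 6.38, 10.2 and 8.76 TPM in WT and 10.4, 10.2 and 10.5 TPM in KO, separate by a small margin over WT mouse 2.

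In all, the TPM of the genotypes did not overlap in 14 of 225 genes with a mean of at least 1 TPM (6.22%), against 5.97% of all such genes and 6.41% of those in the rest of chromosome 8. Higher in KO were 10 genes, where all genes gave 4.82%, and lower were 4, where all genes gave 1.15%. The 10 were Cilp2, Sugp1, Rab3a, Colgalt1, Fam32a, Hmgxb4, Clgn, Mri1, Farsa and Cbln1, and the 4 were Pik3r2, Gtpbp3, Gm5741 and Rps13-ps1. Frem3 and Insl3, with means below 1 TPM, are not in this count. An exact permutation test of 3 mice against 3 cannot go below p = 0.1 (two-sided), which each of the 14 had. Most of these differences were small beside the level. Rab3a, the small GTPase of synaptic vesicles, was at 575, 629 and 618 TPM in WT and 642, 656 and 640 TPM in KO, and Mri1, an enzyme of methionine salvage, at 24.4, 22.9 and 22.7 TPM in WT and 25.5, 25 and 26 TPM in KO. Pik3r2, a regulatory subunit of phosphoinositide 3-kinase, was at 58.2, 59.5 and 57.9 TPM in WT and 57.7, 54.7 and 57.9 TPM in KO. Gm5741 was at 7.93, 7.36 and 7.29 TPM in WT and 6.01, 6.45 and 5.37 TPM in KO.

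**Figure D3:**
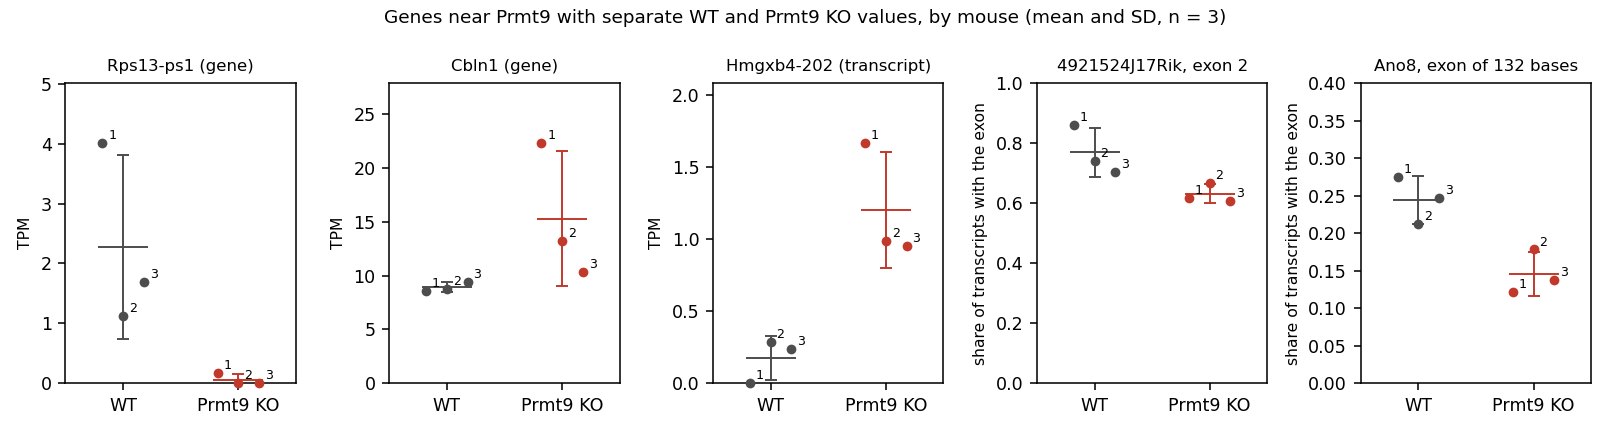
Values by mouse (points numbered by mouse, bars for mean and SD, n = 3) of genes with separate WT and Prmt9 KO values: TPM of Rps13-ps1, Cbln1 and the transcript Hmgxb4-202, and the share of transcripts with the exon for 4921524J17Rik and Ano8. Rps13-ps1 is near 0 in KO, Cbln1 is highest in KO mouse 1 at 22.3 TPM, Hmgxb4-202 is at 0.289 TPM or less in WT and at 0.954 TPM or more in KO, and both exons have lower shares in KO.

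Genes at the highest levels showed the mouse number more than the genotype. Prdx2, a peroxide-reducing enzyme, was at 797, 331 and 335 TPM in WT and 665, 345 and 338 TPM in KO, and the endoplasmic reticulum chaperone Calr at 349, 570 and 579 TPM in WT and 407, 558 and 522 TPM in KO. In both genes the mice numbered 1 stood apart from the other 4 and the genotypes overlapped. Tecr, of very long-chain fatty acid synthesis, ranged from 559 to 583 TPM in WT and from 521 to 635 TPM in KO.

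The genes were also read by role. Of 25 genes of synapse and neuronal signalling, all were tested, 0 passed in either direction at an adjusted p below 0.05, and the median log2 fold change was −0.06, from −2.01 for Gdf1 to 0.72 for Cbln1. Gdf1, a TGF-beta family ligand, was at 26.1, 12.1 and 0.0362 TPM in WT and 0.424, 3.73 and 7.14 TPM in KO, and 100% of its 31-base stretches lie in transcripts of other genes, so that its level is uncertain. The log2 fold change of Gdf1 was −0.68 without WT mouse 1 and −0.17 without both mice numbered 1. Cacna1a, the pore of the P/Q-type calcium channel, was at 94.5, 128 and 122 TPM in WT and 109, 121 and 122 TPM in KO. Unc13a, which primes synaptic vesicles, was at 94.4, 188 and 185 TPM in WT and 112, 159 and 150 TPM in KO. The 22 genes of RNA processing and transcription had a median of −0.05, from −0.28 for Lsm4 to 0.05 for Farsa, a subunit of phenylalanyl-tRNA synthetase. Lsm4 was at 0.24 without WT mouse 1 and at −0.01 without both mice numbered 1. Upf1, the helicase of nonsense-mediated decay, was at 20.9, 33.9 and 33.1 TPM in WT and 23.5, 31 and 32.2 TPM in KO.

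The 7 immediate-early and stress-responsive genes had a median of −0.25, and all 7 were below 0, from −0.51 for Gdf15 to −0.06 for Klf2. Without WT mouse 1 the median was −0.05 with 4 of 7 below 0, and without both mice numbered 1 it was −0.07 with 5 of 7 below 0, when Gdf15 was at 0.12 and Klf2 at 0.07. Junb alone of them had an unadjusted p below 0.05, and none of the 6 with a mean of at least 1 TPM had separate groups. Ier2, an immediate-early gene, was at 11.1, 9.72 and 9.30 TPM in WT and 9.45, 7.47 and 9.49 TPM in KO, and Dnajb1, a heat-shock co-chaperone, at 21.0, 41.3 and 37.0 TPM in WT and 24.9, 30.6 and 30.8 TPM in KO. Both overlapped. The 12 genes of mitochondria and peroxisome had a median of −0.17, which was 0.05 without WT mouse 1 and −0.03 without both mice numbered 1, and their lowest, the complex I subunit Ndufa13, was at 442, 192 and 190 TPM in WT and 256, 191 and 188 TPM in KO. Its log2 fold change of −0.52 became 0.21 without WT mouse 1. The highest of that list was Mmaa at 0.04. The 20 genes of the secretory pathway, endosomes and signalling adaptors had a median of −0.05, from −0.21 for the coatomer subunit Cope to 0.26 for Clgn. Without WT mouse 1 that median was 0.04 and Cope was at 0.13, and without both mice numbered 1 they were −0.02 and −0.02. Of 15 genes listed as vascular, blood and immune, 14 had a row and were tested, with a median of −0.12. They ranged from −0.76 for Insl3, which the list includes though it is best known from the gonads, to 0.03 for Il15. Their median was 0.01 without WT mouse 1 and 0.00 without both mice numbered 1. Endothelial, blood and microglial markers are given beside this list. The endothelial markers Cldn5, Pecam1 and Flt1 summed to 129, 73.7 and 75.6 TPM in WT and to 113, 66.2 and 81.3 TPM in KO. None of them had separate groups. Cldn5 was higher in both mice numbered 1 than in the others, Flt1 was lower, and Pecam1 was at 13.5 to 15.8 TPM in every mouse. The blood markers Hbb-bs, Hba-a1 and Alas2 summed to 1725, 2575 and 3860 TPM in WT and to 664, 2042 and 1233 TPM in KO, and 0 of the 3 had separate groups. The microglial markers Cx3cr1, P2ry12 and Csf1r summed to 98.7, 144 and 136 TPM in WT and to 95.1, 133 and 129 TPM in KO. P2ry12, a receptor of microglia, was the 1 of the 3 with separate groups, at 44.9, 42.4 and 39.7 TPM in WT and 32.8, 37.8 and 33.3 TPM in KO. The part of endothelium, blood and microglia in the values of the list was not tested. No gene of these lists had an adjusted p below 0.05, and the lists were written with earlier results of these data known.

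The count of small p values within 10 Mb, both directions together, moved with the fit in the same way as over all genes. Blocking on the replicate number gave 20 of 275 (7.27%), against 5.73% of all genes and 5.43% of the rest of chromosome 8. With a term for the mice numbered 1 it was 35 (12.7%), against 9.71% and 9.78%, and without WT mouse 1 it was 9 of 277 (3.25%), against 3.35% and 4.53%. Without both mice numbered 1, a choice made after the data were seen, it was 47 of 276 (17%), against 16.4% and 19.6%. By direction, 12 were lower and 8 higher in KO with the block, beside 642 and 524 over all genes. With the term for the mice numbered 1 these were 24 and 11, beside 1078 and 896. Without WT mouse 1 they were 6 and 3, beside 221 and 473, and without both mice numbered 1 31 and 16, beside 1760 and 1600. In each of these fits 0 genes of the window reached an adjusted p below 0.05, beside 1, 1, 0 and 1 of all genes tested.

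**Figure D4:**
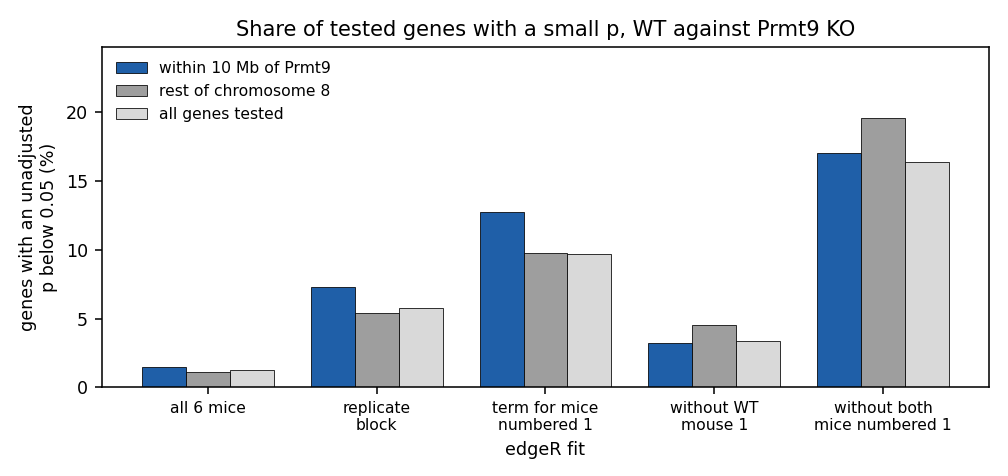
Percentage of tested genes with an unadjusted p below 0.05 (y axis) in 5 edgeR fits (x axis), for genes within 10 Mb of Prmt9, the rest of chromosome 8 and all genes. The 3 shares move together from fit to fit, from 1.45%, 1.09% and 1.23% over all mice to 17%, 19.6% and 16.4% without the mice numbered 1.

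The use of transcripts was compared in 191 genes of the window with at least 2 transcripts past the filter. By diffSpliceDGE of edgeR with Simes p values for genes, 0 of 191 had an adjusted p below 0.01, against 0.162% of all genes, and 0 had an adjusted p below 0.05, against 0.243%. At an unadjusted p below 0.05 there were 2 (1.05%), Hmgxb4 and Mri1, against 1.67% of all genes. Blocking on the replicate number also gave 2, but these were Adgrl1 and Borcs8 (edgeR, unadjusted p = 0.0226 and 0.0356), while Hmgxb4 and Mri1 were then at an unadjusted p of 0.0813 and 0.244. The adjusted p of all 4 genes was 1 with and without the block.

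Hmgxb4, an HMG-box protein gene 2.52 Mb from Prmt9 (ENSMUSG00000034518, chr8:74993356-75031978), had the smallest usage p. The transcript behind it was Hmgxb4-202, a protein-coding transcript of 7 exons that starts 22.9 kb inside the gene, in an exon of its own at chr8:75016222-75016406. Its estimated counts were near 0, 95.2 and 73.2 in WT mice 1, 2 and 3 and 548, 384 and 330 in KO mice 1, 2 and 3. In TPM the highest WT value was 0.289 and the lowest KO value 0.954, so every KO mouse was above every WT mouse. Its share of the gene's TPM was 0.0120 ± 0.0105 in WT and 0.0724 ± 0.0251 in KO (SD, n = 3 each; exact permutation test of its TPM, p = 0.1). Relative to the other transcripts of the gene its log2 fold change was 1.90, and the gene's usage test gave an unadjusted p of 0.0169 and an adjusted p of 1 (edgeR). Without both mice numbered 1 the log2 fold change was 1.30 and edgeR's adjusted p was 0.00716, and without WT mouse 1 alone the adjusted p was 0.0289. Leaving out any other single mouse gave no adjusted p below 0.05. Over all mice, edgeR's gene-level F test gave an unadjusted p of 0.0890. The Simes test gave 0.449 when at least 10 counts were required in every mouse, which leaves out Hmgxb4-202.

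The junctions that tell Hmgxb4-202 from the longer Hmgxb4-201 are shown because both transcripts continue into the same exon. Each line holds the last 30 bases of the exon before (chr8:75016377-75016406 for Hmgxb4-202, chr8:75001555-75001584 for Hmgxb4-201) and the first 30 bases of the shared exon (chr8:75020244-75020273), on the forward strand from GENCODE M21 (GRCm38), 5′ to 3′. Capitals mark the annotated start codon of Hmgxb4-202, which lies in its own first exon.
Hmgxb4-202 junction: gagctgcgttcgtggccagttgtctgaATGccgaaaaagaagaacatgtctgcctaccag
Hmgxb4-201 junction: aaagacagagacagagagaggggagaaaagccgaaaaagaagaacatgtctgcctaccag

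Hmgxb4-201 had 407, 150 and 286 estimated counts in WT and 291, 248 and 115 in KO, overlapping throughout. Most counts of the gene went to Hmgxb4-206, annotated as subject to nonsense-mediated decay, with 2203 to 3380 in WT and 3172 to 3551 in KO. The TPM of the whole gene was 9.89, 15.1 and 14.1 in WT and 16.5, 17 and 16.6 in KO, separate between the groups, with a log2 fold change of 0.14 (95% CI −0.16 to 0.44) on the counts, which was 0.01 without both mice numbered 1. The exon of 115 bases that Hmgxb4-206 includes reached a mean share of 0.603 ± 0.004 among WT and 0.518 ± 0.040 among KO mice (SD, n = 3 a group; p = 0.1 by the exact permutation test). That difference of −0.09 in TPM became 0.00 with estimated counts, where the groups overlapped.

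The genes that followed by usage p are given by the transcript with the smallest p. Mri1-201, annotated for nonsense-mediated decay, had 307, 75.5 and 19.6 estimated counts in WT and 47.2, 15.7 and 45.5 in KO, which overlapped, and WT mouse 1 held most of the difference (edgeR adjusted p = 1). Prkaca encodes the alpha catalytic subunit of protein kinase A. Its transcript Prkaca-202 had 75.8, 769 and 559 counts in WT and 155, 291 and 83.1 in KO, at a share of 0.0329 or less in every mouse. Adgre5, the adhesion receptor CD97, gave Adgre5-201 shares of 0.187, 0.0609 and 0.0589 in WT and 0.0433, 0.0313 and 0.0360 in KO, separate but widest in WT mouse 1. The transcripts behind Adgrl1 (latrophilin 1), Borcs8 (a subunit of the lysosome-positioning BORC complex), Iqcm and Use1 (a SNARE of the endoplasmic reticulum) had at most 576 estimated counts in every mouse, and near 0 in at least 1 WT mouse each. For Adgrl1, Borcs8 and Use1 that transcript took a share of 0.0389 or less in every mouse. Iqcm-202 took shares of 0, 0.599 and 0.000649 in WT and 0.774, 0.694 and 0.669 in KO, separate between the groups, at a level of the gene of 0.337 TPM or less. The level of Use1 as a gene had a log2 fold change of −0.33, which became 0.26 without WT mouse 1.

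Without both mice numbered 1, 2 genes reached an adjusted usage p below 0.01, Fbxw9 and Hmgxb4, against 1.68% of all genes. At an adjusted p below 0.05 there were 6, among them Mast3 and Slc27a1, against 2.98%. Fbxw9, an F-box protein gene, owed its p to Fbxw9-205, which had 239, 0.137 and 0.105 estimated counts in WT and 0.000100, 41.8 and 18.1 in KO. The mice left out had the opposite order, so over all mice the groups overlapped. Without WT mouse 1 alone, Neto2, an auxiliary subunit of kainate receptors, had an adjusted usage p of 0.0124 (edgeR), beside Hmgxb4, and 1.66% of all genes were below 0.05.

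The shares of single transcripts were followed in 553 transcripts of 160 genes with at least 1 TPM in every mouse. The 3 KO shares lay wholly above or below the 3 WT shares in 59 transcripts (10.7%), against 9.47% of all transcripts and 8.96% in the rest of chromosome 8. Higher in KO were 29, where all transcripts gave 4.92%, and lower were 30, where they gave 4.54%. The mean share differed by at least 0.1 in 9 transcripts (1.63%), against 3.06% of all transcripts. Zfp961, a zinc finger gene, had the largest difference. Its transcript Zfp961-201 had shares of 0.703, 0.349 and 0.422 in WT and 0.318, 0.340 and 0.236 in KO, and Zfp961-202 shares of 0, 0.138 and 0.139 in WT and 0.223, 0.231 and 0.280 in KO. Both were separate, with WT mouse 1 farthest out, and the gene's usage test gave an adjusted p of 1 (edgeR). Of the remaining 7 transcripts, 2 belong to 4921524J17Rik and were separate, and those of Ccnb2-ps, Il15, Slc10a7 and 4930432K21Rik overlapped.

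For 4921524J17Rik, 7.83 Mb from Prmt9, the difference is the inclusion of its exon 2, 97 bases at chr8:85426860-85426956 on the reverse strand. The share of transcripts with the exon was 0.862, 0.742 and 0.704 in WT and 0.618, 0.667 and 0.607 in KO. All KO mice were below all WT mice, and the means were 0.769 ± 0.082 and 0.631 ± 0.032 (SD, n = 3 a group; p = 0.1 by the exact permutation test). The difference was −0.138 in TPM and −0.0429 in estimated counts, and in both the groups were separate. The transcript without the exon, 4921524J17Rik-202, is annotated for nonsense-mediated decay, and the length of the exon is not a multiple of a codon, with 1 base left over. The gene's edgeR usage test gave an adjusted p of 1.

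For Ano8, of the anoctamin membrane protein family, 6.06 Mb from Prmt9, an exon of 132 bases at chr8:71481619-71481750 on the reverse strand was included at shares of 0.275, 0.212 and 0.247 in WT and 0.122, 0.178 and 0.138 in KO. The groups were separate, with means of 0.244 ± 0.032 and 0.146 ± 0.029 (SD, n = 3 each; exact permutation test, p = 0.1), and the difference was −0.0986 in TPM and −0.101 in estimated counts. Its length divides into whole codons, with 0 bases left over. The adjusted usage p of the gene was 1 (edgeR). Both exons are shown as the sequence that differs between the transcripts compared, 5′ to 3′ from GENCODE M21 (GRCm38).
4921524J17Rik exon 2: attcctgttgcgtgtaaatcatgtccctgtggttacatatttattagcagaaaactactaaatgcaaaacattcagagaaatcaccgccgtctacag
Ano8 exon: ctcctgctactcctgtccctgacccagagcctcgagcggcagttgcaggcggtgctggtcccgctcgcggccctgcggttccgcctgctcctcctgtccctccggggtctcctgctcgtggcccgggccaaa

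Slc25a42, a mitochondrial carrier gene, was named after its values were seen. Its intron of 461 bases at chr8:70188950-70189410 was retained in a share of 0.576, 0.559 and 0.571 in WT and 0.420, 0.501 and 0.527 in KO. The groups were separate, with means of 0.569 ± 0.009 and 0.483 ± 0.056 (SD, n = 3 each), and KO mouse 1 was the lowest. An exact permutation test gives p = 0.1 to any separate groups of 3, so it adds nothing to that choice. Among all transcripts followed, 9.47% had separate shares. The difference was −0.105 with estimated counts.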

How the data were processed

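Poly(A)+ RNA of hippocampus from 6 mice had been sequenced as stranded paired-end libraries. The authors deposited for each mouse kallisto's estimated counts and TPM per annotated transcript, and a table of TPM per gene. The submitters' processing notes name kallisto 0.46.0, STAR 2.7.1a and GRCm38, and the transcript annotation used with kallisto was not given in the sources used here. kallisto shares reads between similar transcripts by its model, so near-identical copies can exchange counts. TPM is relative to the library and to length, so a large change in a few genes moves all others.

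Of 118783 transcripts, 116710 matched GENCODE M21 by identifier and 2073 did not (at most 0.700% of the estimated counts of a mouse). Estimated counts were summed per gene and rounded to whole numbers, and compared with edgeR 4.0.16 (quasi-likelihood F test, TMM, filterByExpr, Benjamini-Hochberg over all genes tested) in R 4.3.3. Calls used the study's limits, which are a fold change above 1.5 with an adjusted p below 0.01. Transcript use was tested with diffSpliceDGE (Simes) on rounded estimated transcript counts. A transcript's share is its TPM over the summed TPM of its gene, followed where every mouse had 1 TPM or more of the gene and the mean share was 0.05 to 0.95. Exon shares are the TPM of transcripts with the exon over that of transcripts with or without it. P-values of the fits set the difference between the genotypes against the variation between mice that the terms of the fit leave. Each group had 3 mice where none was left out. Exact permutation tests were two-sided and give p = 0.1 whenever 2 groups of 3 mice do not overlap. Sequences shared with other genes were counted as 31-base stretches of the transcripts. The scripts were tested on simulated data. Python 3.11.15, pandas 2.3.3, NumPy 2.4.6, SciPy 1.17.1 and matplotlib 3.10.9 were used for the summaries.

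Replicate numbers came from the sample titles. Deviations from the group means of same-numbered mice correlated at 0.552, 0.417 and 0.378, and the replicate block took the numbers as pairs. The titles state no pairs, and mice 2 and 3 correlated across numbers at 0.396 and 0.409. Alternatives were DESeq2 1.42.0, other size factors, limma 3.58.1 on log2(TPM + 1) and log2(TPM + 0.1), no filter, other TPM and share minimums, the replicate block, a term for the mice numbered 1, and each mouse left out. Leaving out both mice numbered 1 and the split by GC content were chosen after seeing the data. Genes were named by a rule: an adjusted p below 0.05, the 10 smallest p in each of the gene and usage tests, the 5 nearest tested genes on each side, the 5 of highest TPM, the extremes of each list by role, and all listed neighbours. A few genes that this rule names are not reported here. Fbxw9, Neto2, Zfp961, Slc25a42 and the genes given as further examples of a list or count lie outside it and were chosen after their values were seen. The genes and lists were chosen with earlier results of these data known.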

Additional observations from a re-analysis of the deposited data

How the results depend on the processing

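Of 661 values (the log2 fold changes of 51 named genes, each under up to 13 alternatives), 603 moved by less than 1 SD between mice and 58 moved by more, 31 of these when 1 mouse was left out. No gene of the window was called for expression under any alternative run. Over all genes, DESeq2 called 2 at the same limits. There edgeR called 1 with a term for the mice numbered 1 and 1 without both of those mice. At an adjusted p below 0.05, DESeq2 gave 1 gene (Rps13-ps1). Genes with an unadjusted p below 0.05 numbered 4 (against 1.23% of all genes) and 20 with the replicate block (against 5.73%). They numbered 35 with a term for the mice numbered 1 (against 9.71%) and 47 without both of those mice (against 16.4%). With 1 mouse left out they numbered 1 to 9, the 9 without WT mouse 1 (against 3.35%). With the replicate block 2 genes had an unadjusted usage p below 0.05, as without it, but they were Adgrl1 and Borcs8 in place of Hmgxb4 and Mri1, and the median log2 fold change was −0.06. The block changed no call at an adjusted p below 0.05. The median of −0.06 became 0.0137 and 0.0198 with limma on log2(TPM + 1) and log2(TPM + 0.1), where the medians of all genes were 0.05 and 0.07. It became −0.0153 without both mice numbered 1, and ranged from −0.0782 to 0.0116 with 1 mouse left out (0.0116 without WT mouse 1). In the GC-poorest class it was −0.00082, where the median of all genes of the class was 0.03. The median minus that of all genes stayed below 0 in every alternative and went from −0.01 without WT mouse 1 to −0.07 without KO mouse 1. Genes with separate TPM numbered 14, 127 without both mice numbered 1 (51.1% of all genes then) and 16 to 88 with 1 mouse left out, the 88 without WT mouse 1 (34.7% of all genes) and 48 without KO mouse 1. Genes with an unadjusted usage p below 0.05 numbered 2 (1.05%, against 1.67% of all genes). They numbered 4 with a gene-level F test (2.09%, against 2.07%) and 5 with at least 10 counts in every mouse (2.87%, against 1.98%). With limma they numbered 8 (4.19%, against 3.61%), and without both mice numbered 1 they numbered 18 (9.33%, against 7.65%). The counts with 1 mouse left out were 1 to 10. The highest of these was 10 without WT mouse 2. Adjusted usage p values below 0.05 numbered 0 to 2 with 1 mouse left out and 6 without both mice numbered 1, against 2.98% of all genes. In that last fit 2 genes were called at 0.01, against 1.68% of all genes. Transcripts with separate shares numbered 59, 276 without both mice numbered 1 (42.1% of all transcripts) and 80 to 191 with 1 mouse left out (191 without WT mouse 1, 107 without WT mouse 3 and 114 without KO mouse 1). Fewer mice give separate groups more often by construction, and the cause of the other moves was not tested. Counts with 1 mouse left out that stand without a share of all genes or transcripts are not read as a result about the window.

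With 3 mice a group and both mice numbered 1 far from the rest, the median interval of a gene spans 1.45-fold either way, and 1.15-fold with a term for those mice. Of the genes, 29 share over 50% of their 31-base stretches with other genes, and their levels depend on how reads were divided. Variants along chromosome 8 were not analysed here, so the comparison covers levels and transcript shares only.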

Other observations

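Of the 21 tested genes with a fold change above 1.5 in either direction, 16 were lower and 5 higher in KO, where of the 1346 such genes over the genome 577 were lower and 769 higher. The counts without both mice numbered 1 were 11 and 5, beside 455 and 813 over the genome. Gm10282, of which 83.6% of the 31-base stretches lie in other genes, was at 10.6, 2.88 and 2.86 TPM in WT and 4.06, 2.43 and 2.51 TPM in KO, and its log2 fold change of −1.03 was 0.13 without WT mouse 1. Zfp869, a zinc finger gene, had a log2 fold change of −1.23 on the estimated counts, while its TPM of 18.7, 26 and 25.6 in WT and 22, 25.2 and 25.6 in KO overlapped.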
